A study of Mus musculus with 6 samples.

Results

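The creatine kinase genes Ckm, Ckb, Ckmt1 and Ckmt2, the creatine transporter gene Slc6a8, the adenylate kinase gene Ak1 and the myoglobin gene Mb were followed in mouse hearts with and without Arrdc4. The 7 genes were taken by symbol from the 49315 Ensembl identifiers of the count table, and each symbol matched 1 identifier. They were chosen with earlier results of these data known. RNA was sequenced from 6 hearts of C57BL/6 mice, 1 library per heart: 3 wild type and 3 with an ARRDC4 knock-out made by CRISPR-Cas9. The sources used here do not give the edited part of the gene, the cells that carry the edit, or the age, sex and litter of the animals. No treatment is named for either group. Since nothing in the labels says how the animals of a group are related, p-values measure the spread between these 6 hearts.

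Creatine kinases move a phosphate group between ATP and creatine, so that phosphocreatine can refill ATP where it is spent. In striated muscle the sarcomeric mitochondrial enzyme, encoded by Ckmt2, makes phosphocreatine next to the ATP-exporting carrier of the inner membrane, and the cytosolic muscle enzyme, encoded by Ckm, regenerates ATP at myofibrils and ion pumps. Ckb encodes the cytosolic brain-type enzyme, which smooth muscle and many non-muscle cells also make, and Ckmt1 encodes the ubiquitous mitochondrial enzyme. Heart muscle imports creatine through the transporter encoded by Slc6a8. Adenylate kinase 1, encoded by Ak1, turns ADP into ATP and AMP, and myoglobin, encoded by Mb, binds oxygen in the cytosol of heart and slow skeletal muscle.

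The libraries held 29974501 to 41036626 counts. Arrdc4, the gene that was knocked out, had 349, 307 and 281 reads in wild-type hearts 1 to 3 and 5, 1 and 2 reads in knockout hearts 1 to 3, so all 6 libraries matched their labels (log2 fold change -6.93, SE 0.36, adjusted p = 0.00226 in edgeR's quasi-likelihood test). Mitochondrially encoded genes made up 21.8% to 27.7% of each library. Wild-type heart 3 and knockout heart 2 stood apart from the other 4: they were the 2 highest hearts for 29.4% of the 14508 genes tested and the 2 lowest for 29.0%. Results on members are therefore also given without this pair. Cardiomyocyte markers summed to 66713 to 73939 CPM (read counts relative to library size, with edgeR's TMM scaling) in wild-type and 66454 to 79846 CPM in knockout hearts, with Myh6 and Actc1 the most abundant. The tissue label of heart thus had its defining markers in every library.

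Promoter windows were available for 6 of the 7 genes, all but Slc6a8. Those of Ckm, Ckb and Ckmt2 are shown, since these are the 3 creatine kinase genes whose levels could be compared between the groups. Each runs from 250 bases before to 50 bases after a RefSeq start on GRCm38.p6, read 5′ to 3′ on the gene's strand, and capitals mark every match, on either strand, to the motifs searched. Ckm lies at chr7:19410844-19411143 on the plus strand, Ckb at chr12:111672289-111672588 and Ckmt2 at chr13:91876836-91877135 on the minus strand.
Ckm: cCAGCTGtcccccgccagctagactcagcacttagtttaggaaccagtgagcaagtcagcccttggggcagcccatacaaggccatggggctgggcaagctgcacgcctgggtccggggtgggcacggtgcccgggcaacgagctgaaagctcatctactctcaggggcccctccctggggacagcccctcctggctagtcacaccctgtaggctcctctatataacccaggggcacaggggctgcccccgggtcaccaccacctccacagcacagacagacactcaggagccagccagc
Ckb: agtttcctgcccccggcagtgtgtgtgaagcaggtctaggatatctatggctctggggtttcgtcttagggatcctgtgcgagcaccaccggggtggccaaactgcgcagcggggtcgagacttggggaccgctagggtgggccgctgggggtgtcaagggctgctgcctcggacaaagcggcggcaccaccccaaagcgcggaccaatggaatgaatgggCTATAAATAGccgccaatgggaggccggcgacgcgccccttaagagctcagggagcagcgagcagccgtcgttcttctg
Ckmt2: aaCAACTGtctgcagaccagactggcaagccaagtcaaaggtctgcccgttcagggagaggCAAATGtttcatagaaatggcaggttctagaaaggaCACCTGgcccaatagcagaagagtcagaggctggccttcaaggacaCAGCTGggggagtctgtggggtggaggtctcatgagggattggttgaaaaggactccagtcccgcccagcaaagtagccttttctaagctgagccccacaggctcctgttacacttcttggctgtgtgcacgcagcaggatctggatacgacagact
The motifs were the E-box CANNTG, the TATA box TATAAA, the estrogen-related receptor site AAGGTCA, and the MEF2 site and CArG box by name. In the Ckb window the capitals CTATAAATAG, at positions -29 to -20 with the start counted as 0, matched the MEF2 site, and the TATA box lies inside them. The Ckm window held 1 E-box, CAGCTG at -249 to -244, and the Ckmt2 window held 4, of which the nearest to the start was CAGCTG at -107 to -102. Over the 32851 promoter windows of the same length in the RefSeq table, 72.3% held an E-box, 13.6% the TATA box, 4.72% the estrogen-related receptor site, 3.19% the MEF2 site and 1.63% the CArG box. Elsewhere among the members, 1 of the 4 Ak1 windows held a MEF2 site and a TATA box. They lay after the start, at 20 to 29 and 21 to 26. Another Ak1 window held the receptor site at -90 to -84. Of the 2 Ckmt1 windows, 1 held the TATA box (-31 to -26) and the receptor site (-179 to -173), both on the opposite strand. The counts do not tell which start a transcript used.

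Myoglobin was the highest of the members and Ckmt1 the lowest in every heart. Levels between genes were compared as CPM per kilobase of exon (RPKM), with all annotated exons of a gene merged. Over the 6 hearts Mb ran from 6967 to 11954 RPKM with a median of 8209. Ckmt2 followed at 1049 to 1371 RPKM (median 1187) and Ckm at 706 to 890.2 RPKM (median 872). The next was Ak1 at 190.4 to 217 RPKM, then Slc6a8 at 29.8 to 40.7 RPKM and Ckb at 13.3 to 16.5 RPKM. No neighbours in this order overlapped in their ranges over the 6 hearts, so that each gene stood above the next in 6 of 6 hearts. The closest neighbours were Ckmt2 and Ckm, whose ratio lay between 1.33 and 1.56. That step depended on the length used: with the shortest coding transcript of each gene, 1235 bases for Ckm in place of 2913 and 1486 bases for Ckmt2 either way, the ratio was 0.565 to 0.663 and Ckm stood above Ckmt2 in all 6 hearts. The other neighbours kept their order, but the sizes of their steps also depended on the length. The ratio of Mb to Ckmt2 went from 5.82 to 10.1 with merged exons to 15.8 to 27.4 with the shortest transcripts. That of Ak1 to Slc6a8 was 4.67 to 6.70 with merged exons and 2.46 to 3.52 with the shortest transcripts.

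**Figure D1:**
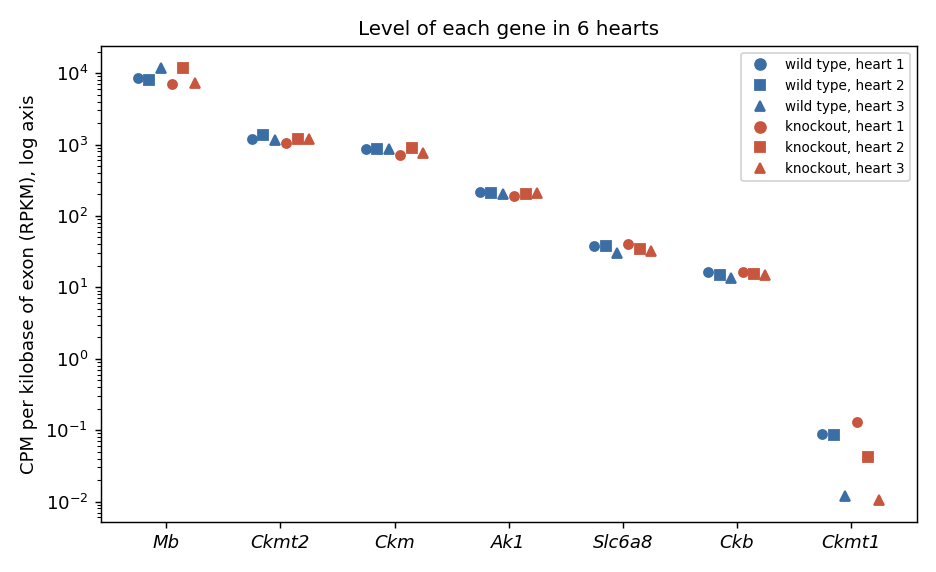
Level of each of the 7 genes in each of the 6 hearts, as CPM per kilobase of merged exon on a log axis, with wild-type hearts in blue and knockout hearts in red. Mb lies at 6967 to 11954 RPKM and Ckb at 13.3 to 16.5 RPKM, and the points of Ckmt1 rest on 1 to 14 reads each.

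Within the creatine kinase family, 2 genes held nearly all transcripts by length. Ckm and Ckmt2 made up 38.8% to 42.6% and 56.7% to 60.6% of the per-length total of the 4 genes. With the shortest coding transcripts these shares were 59.6% to 63.3% for Ckm and 35.8% to 39.5% for Ckmt2. Ckb, the brain-type gene, made up 0.647% to 0.918%, and Ckmt1 at most 0.00739%. The table also lists a pair of processed pseudogenes of Ckb, which had 0 reads in all 6 libraries.

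Ckm, the cytosolic muscle creatine kinase (ENSMUSG00000030399, GRCm38 chromosome 7, 19404776 to 19422841, plus strand, up to 8 exons in a transcript), stood at 2537, 2556 and 2543 CPM in wild-type hearts 1 to 3 and at 2056, 2593 and 2242 CPM in knockout hearts 1 to 3. The wild-type hearts lay within 1 narrow band (2545 ± 9.48 CPM, SD, n = 3), while the knockout hearts spread around it (2297 ± 273 CPM, SD, n = 3): hearts 1 and 3 were below every wild-type heart and heart 2 was above them all. The groups therefore overlapped. The log2 fold change of Ckm, knockout over wild type, was -0.15 (SE 0.16, 95% interval -0.53 to 0.23, adjusted p = 1.0 in edgeR). This was the member with the smallest unadjusted p, 0.39. Without wild-type heart 3 and knockout heart 2 it was -0.25 (SE 0.13, adjusted p = 0.787 in edgeR).

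Ckmt2, the sarcomeric mitochondrial creatine kinase (ENSMUSG00000021622, chromosome 13, 91853387 to 91876885, minus strand, 10 exons), stood at 1765, 2038 and 1734 CPM in wild-type hearts and at 1558, 1762 and 1771 CPM in knockout hearts. Wild-type heart 2 was the highest and knockout heart 1 the lowest, and the other 4 lay close together between 1734 and 1771 CPM. The log2 fold change was -0.12 (SE 0.16, 95% interval -0.49 to 0.25), and -0.20 (SE 0.15) without the pair that stood apart. Ckm and Ckmt2 shared their lowest heart, knockout heart 1, with Ak1 and Mb. Without that heart the log2 fold changes were -0.07 for Ckm, -0.06 for Ckmt2, -0.02 for Ak1 and 0.02 for Mb. Ckm and Ckmt2 ranked the other hearts differently.

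Ckb, the cytosolic brain-type creatine kinase (ENSMUSG00000001270, chromosome 12, 111669361 to 111672338, minus strand, up to 8 exons), stood at 47.7, 43.5 and 38.4 CPM in wild-type hearts and at 47.1, 44.1 and 43.1 CPM in knockout hearts. All 3 knockout values fell inside the wild-type range. Its log2 fold change was 0.05 (SE 0.14, 95% interval -0.27 to 0.37), and -0.02 (SE 0.11) without wild-type heart 3 and knockout heart 2. Leaving out wild-type heart 3 alone gave -0.03. Non-muscle cells can also carry Ckb, and their markers moved between hearts. Epicardial and mesothelial markers (7 genes, led by Upk3b and Aldh1a2) summed to 13.8, 8.28 and 6.95 CPM in wild-type and 37.5, 5.75 and 20.8 CPM in knockout hearts, and fibroblast markers (8 genes, led by Dcn and Col3a1) to 503 to 758 CPM and 419 to 1241 CPM. Neuronal and glial markers (10 genes, led by Uchl1 and Dbh, with Th at 0 reads in all libraries) summed to 11.4 to 15.8 CPM and 14.5 to 16.3 CPM. Smooth muscle and pericyte markers (8 genes, led by Rgs5 and Acta2) summed to 603 to 861 CPM and 693 to 803 CPM. In knockout hearts all 7 epicardial and mesothelial markers had higher values (median log2 fold change 1.49). Fibroblast markers gave 7 higher and 1 lower (median 0.77), and smooth muscle and pericyte markers 7 and 1 (0.34). Neuronal and glial markers gave 4 and 2 of those tested (0.24). None of these markers passed the test, and the median over all genes tested was 0.01. The part of these cells in the Ckb values was not tested. In whole hearts a difference in cell number and a difference in RNA per cell cannot be told apart.

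Ckmt1, the ubiquitous mitochondrial creatine kinase (ENSMUSG00000000308, chromosome 2, 121357714 to 121363737, plus strand, up to 10 exons), had 7, 8 and 1 reads in wild-type hearts and 14, 3 and 1 reads in knockout hearts. These are 0.222, 0.213 and 0.0298 CPM against 0.327, 0.103 and 0.0262 CPM. The gene did not reach the count filter and had no test. A count of 3 reads corresponds to 0.0700 to 0.103 CPM in these libraries, and wild-type heart 3 and knockout heart 3 lay under it. The exact Poisson 95% interval ran from 0.179 to 0.548 CPM in knockout heart 1 and from 0.000756 to 0.166 CPM in wild-type heart 3, covering counting error only. No difference between the groups was detectable at this depth.

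Slc6a8, the creatine transporter (ENSMUSG00000019558, chromosome X, 73673150 to 73682502, plus strand, up to 14 exons), stood at 195, 199 and 155 CPM in wild-type hearts and at 212, 181 and 171 CPM in knockout hearts. Knockout heart 1 was the highest of the 6 and wild-type heart 3 the lowest, so the groups overlapped. The log2 fold change was 0.04 (SE 0.16, 95% interval -0.35 to 0.42), and -0.05 (SE 0.14) without wild-type heart 3 and knockout heart 2. It was -0.07 without wild-type heart 3 alone and -0.06 without knockout heart 1 alone.

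Ak1, the cytosolic adenylate kinase (ENSMUSG00000026817, chromosome 2, 32621758 to 32635058, plus strand, up to 7 exons), stood at 564, 541 and 518 CPM in wild-type hearts and at 494, 519 and 549.7 CPM in knockout hearts. It was the steadiest member, with a highest heart 1.14 times the lowest, against 1.24 for Ckb, 1.26 for Ckm, 1.31 for Ckmt2, 1.37 for Slc6a8 and 1.72 for Mb. The log2 fold change of Ak1 was -0.05 (SE 0.14, 95% interval -0.38 to 0.27), and -0.09 (SE 0.12) without the same pair.

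Mb, the myoglobin gene (ENSMUSG00000018893, chromosome 15, 77015487 to 77050670, minus strand, up to 5 exons), stood at 12589, 11908 and 17593 CPM in wild-type hearts and at 10395, 17836 and 10676 CPM in knockout hearts. It alone took 1.09% to 1.64% of a library's counts. The high hearts were wild-type heart 3 and knockout heart 2, at nearly the same level, and the other 4 lay between 10395 and 12589 CPM. The log2 fold change was -0.11 (SE 0.29, 95% interval -0.78 to 0.56), the widest interval of the 6 tested members. With 1 heart left out it was -0.41 without knockout heart 2 and 0.08 without wild-type heart 3, and it was also above 0 without knockout heart 1 (0.02) or 3 (0.01). Without that pair of hearts it was -0.23 (SE 0.15, adjusted p = 0.795 in edgeR). Mitochondrially encoded genes made up 26.2% and 27.7% of the counts in the pair and 21.8% to 25.7% in the other 4 hearts, and the part of this in the Mb values was not tested. Red blood cell markers (6 genes, led by Hbb-bs and Hba-a1) summed to 525, 674 and 759 CPM in wild-type and 765, 801 and 453 CPM in knockout hearts. Knockout heart 2 was the highest for both this sum and Mb, and knockout heart 1 was the lowest for Mb and high for the sum. The part of blood in the Mb values was not tested.

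**Figure D2:**
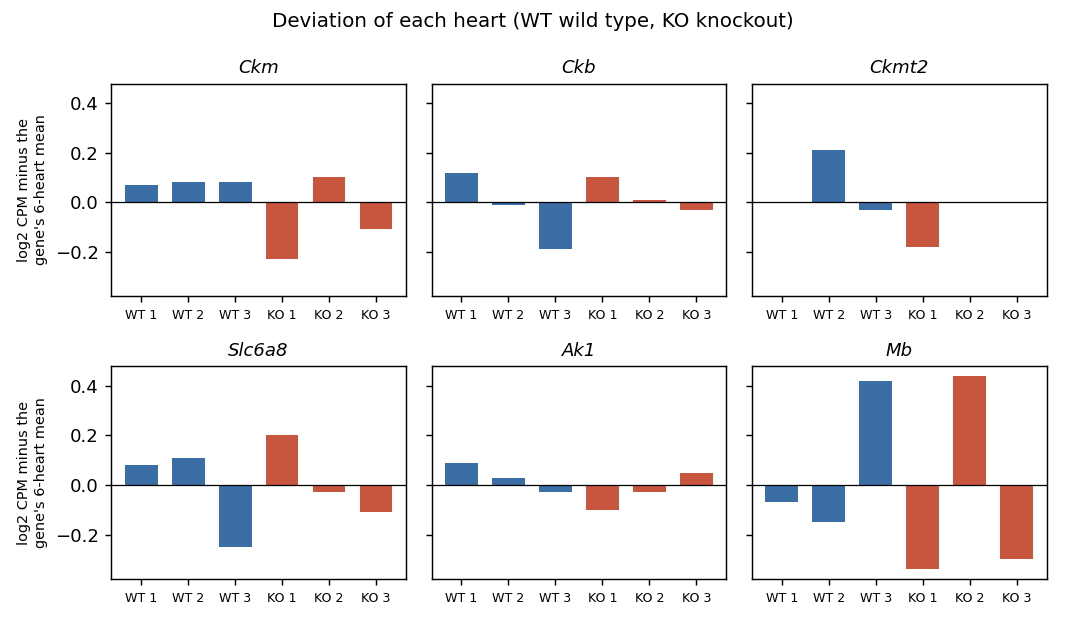
Bars give each heart's log2 CPM minus the gene's mean over the 6 hearts, for the 6 members that passed the count filter, with wild-type hearts in blue and knockout hearts in red. Mb stands at 0.42 in wild-type heart 3 and 0.44 in knockout heart 2, while no other member has this pair as its 2 highest hearts.

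None of the 6 tested members passed the test between knockout and wild-type hearts. At an adjusted p under 0.05 edgeR called 0 of them, against 0.00689% of all 14508 genes tested, which is Arrdc4 alone. At an unadjusted p under 0.05 it held 0 of 6, against 1.23% of all genes, and neither DESeq2 nor limma-voom placed any of them past either threshold. The groups were separated without overlap for 0 of 6 members, against 4.07% of all genes, of which 1.90% were lower and 2.18% higher in knockout. Of the 6, 2 had higher and 4 lower values in knockout hearts, and the median log2 fold change was -0.08 beside 0.01 over all genes tested. Without wild-type heart 3 and knockout heart 2, all 6 had lower values in knockout hearts, with a median of -0.15 and none past the threshold.

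The intervals give the sizes of difference that these hearts allow. For 6 of 6 members the 95% interval left out both a 2-fold increase and a 2-fold decrease, against 76.5% of all genes tested. A 1.5-fold change either way lay outside it for 5 of 6, all but Mb, against 39.7% of all genes. In linear terms the interval of the knockout level relative to wild type ran from 0.693 to 1.17 for Ckm, from 0.711 to 1.19 for Ckmt2, from 0.77 to 1.2 for Ak1, and from 0.581 to 1.47 for Mb.

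**Figure D3:**
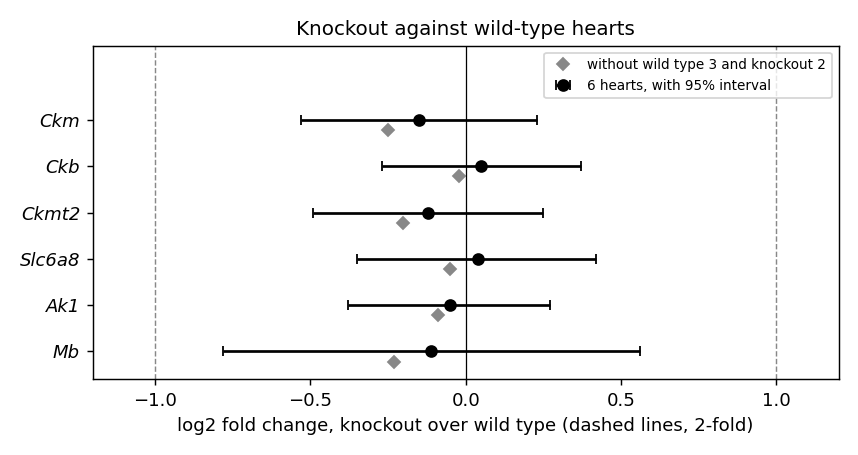
Black points are the log2 fold changes of the 6 tested members, knockout over wild type, with 95% intervals from edgeR, and grey diamonds are the values without wild-type heart 3 and knockout heart 2. Every interval crosses 0 and lies inside the dashed lines at a 2-fold difference.

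Ratios of members inside a library do not depend on how libraries are scaled, and 6 were compared between the groups. With 3 hearts against 3 the exact permutation test (two-sided) cannot go below 0.1. The brain-type to muscle-type ratio, Ckb to Ckm, was -5.73, -5.88 and -6.05 on the log2 scale of read counts in wild-type hearts and -5.45, -5.88 and -5.70 in knockout hearts. Knockout heart 1 had the highest ratio and wild-type heart 3 the lowest, and the group means differed by 0.21 (exact p = 0.3, adjusted over the 6 ratios 1.0). The mitochondrial to cytosolic ratio, Ckmt2 to Ckm, was -0.52, -0.33 and -0.55 against -0.40, -0.56 and -0.34, a difference of 0.04 (exact p = 1.0). Both groups covered nearly the same range of this ratio.

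The ratio of Mb to Ckm was 2.31, 2.22 and 2.79 in wild-type and 2.34, 2.78 and 2.25 in knockout hearts, so that the pair with high Mb stood apart in this ratio too. The group means differed by 0.02 (exact p = 0.8). For Ak1 to Ckm the means were -2.24 ± 0.06 and -2.14 ± 0.16 (SD, n = 3 each), a difference of 0.10 (exact p = 0.4). For Slc6a8 to Ckm they were -3.81 ± 0.20 and -3.61 ± 0.30 (SD, n = 3 each), a difference of 0.20 (exact p = 0.6). The ratio of Ckmt1 to Ckmt2 rests on 1 to 14 Ckmt1 reads and differed by -0.08 (exact p = 0.9). All 6 adjusted values were 1.0, which does not show that the ratios were alike in the groups.

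**Figure D4:**
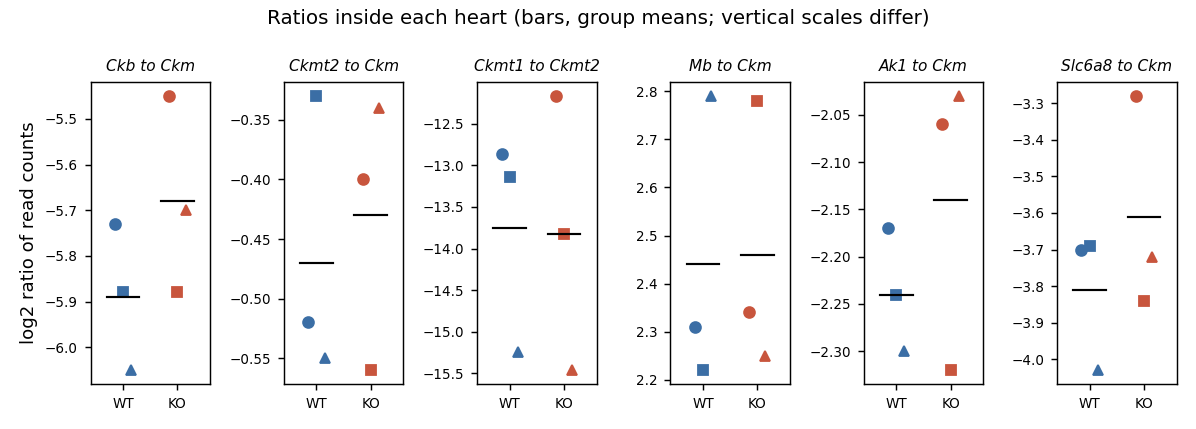
Each panel shows the log2 ratio of 2 members' read counts in every heart, wild type (WT, blue) and knockout (KO, red), with circles, squares and triangles for hearts 1, 2 and 3 and black bars for group means. In the panel of Mb to Ckm, wild-type heart 3 (2.79) and knockout heart 2 (2.78) lie above the other 4 hearts, which run from 2.22 to 2.34.

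The genes around the shuttle were read next, as lists of the pathway's other parts, and no member of these 7 lists passed the test in either direction. The first list holds creatine synthesis, the ADP/ATP carriers, the phosphate carrier and the outer-membrane channels. Of its 8 genes, all tested, 1 had a higher and 7 a lower value in knockout, with a median log2 fold change of -0.09. Its most abundant gene, Slc25a4, the heart ADP/ATP carrier that hands ATP to the Ckmt2 enzyme, averaged 5882 ± 1228 CPM in wild-type and 5106 ± 1308 CPM in knockout hearts (SD, n = 3 each), a log2 fold change of -0.20 (SE 0.25). Slc25a3, the phosphate carrier, averaged 1853 ± 242 and 1721 ± 318 CPM (log2 fold change -0.11, SE 0.20). In 5 of the 8 genes, Slc25a4, Slc25a5, Slc25a3, Vdac2 and Vdac3, wild-type heart 3 and knockout heart 2 were the 2 highest hearts, as for Mb and against 29.4% of all genes tested. The creatine synthesis genes Gatm and Gamt and the channel gene Vdac1 had the same hearts as their 2 lowest. Of the other nucleotide kinases, AMP deaminases and related enzymes, 14 of 19 were tested, 4 with higher and 10 with lower values (median -0.06). Among them Nme2, a nucleoside diphosphate kinase, stood at 205 ± 90.9 and 192 ± 114 CPM (-0.10, SE 0.46) and Adk, adenosine kinase, at 179 ± 24.6 and 160.3 ± 26.8 CPM (-0.16, SE 0.18). Ampd1, the skeletal muscle AMP deaminase, had 0 reads in all 6 libraries.

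AMP-activated protein kinase senses the AMP that adenylate kinase makes. All 11 of its subunit and upstream genes were tested, 3 with higher and 8 with lower values (median -0.02), and each interval lay inside a 2-fold change. Prkaa2, the catalytic alpha 2 subunit, averaged 169 ± 14.7 CPM in wild-type and 156 ± 12.8 CPM in knockout hearts (SD, n = 3 each), a log2 fold change of -0.12 (SE 0.14), and Cab39, a partner of the upstream kinase, at 122 ± 2.99 and 122 ± 8.99 CPM. The list of partners of muscle creatine kinase holds ion pump subunits, cardiac myosins, M-band proteins and subunits of ATP-sensitive potassium channels. It split into 6 higher and 6 lower values of 12 tested (median 0.00). Atp2a2, the calcium pump of the sarcoplasmic reticulum, stood at 17554 ± 2207 and 18770 ± 3140.1 CPM (0.10, SE 0.21). Myh6, the adult cardiac myosin heavy chain, stood at 18023 ± 8441 and 20529.7 ± 10383 CPM (0.19, SE 0.50). In wild-type heart 3 and knockout heart 2, where Mb was highest, Myh6 was lowest, at 10042 and 9167 CPM against 17169 to 29523 CPM in the other 4 hearts. Cardiomyocyte markers did not share this direction. Of the 12, 6 had this pair as their 2 highest hearts: Tnnt2, Tnni3, Tnnc1, Myl2, Myl3 and Pln. Another 4, Myh6, Ttn, Ryr2 and Mybpc3, had it as their 2 lowest. The part of transcript length or RNA quality in this split, and in the pattern of Mb, was not tested.

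On the oxygen side, the list of other globins, haem synthesis and haem breakdown had 13 of 14 genes tested, 4 higher and 9 lower (median -0.08). Alas1, the first enzyme of haem synthesis outside the red cell lineage, averaged 225 ± 38.8 and 208 ± 31.2 CPM (SD, n = 3 each, log2 fold change -0.11, SE 0.19), and Fech, which inserts the iron, at 154 ± 11.8 and 145 ± 26.4 CPM (-0.09, SE 0.17). In 9 of these 13 genes the 2 highest hearts were the pair in which Mb was highest, and in 1 the 2 lowest, against 29.4% and 29.0% of all genes tested. The medians of this list and of the nucleotide kinases moved with single hearts: without wild-type heart 3 they were 0.11 and 0.10, and without knockout heart 2 they were -0.23 and -0.28. Genes of the hypoxia response gave 6 higher and 8 lower values of 14 (median -0.01), with the oxygen sensor Egln1 at 501 ± 34.5 and 496 ± 37.1 CPM (-0.01, SE 0.15) and Bnip3 at 352 ± 221 and 287 ± 223 CPM (-0.29, SE 0.61). The transcription factors and coactivators of muscle energy genes gave 9 higher and 9 lower values of 18 tested (median 0.01), and all 18 intervals lay inside a 2-fold change. The pair in which Mb was highest was the 2 lowest hearts for 10 of these 18 genes and the 2 highest for 2. It was the 2 highest for 9 and the 2 lowest for 3 of the 14 nucleotide kinases and related enzymes. For AMP-activated protein kinase these counts were 1 and 4 of 11 genes, and for hypoxia genes 3 and 1 of 14. For the partners of muscle creatine kinase they were 1 and 6 of 12. Marker lists differed too, with 1 and 5 of 7 endothelial, 0 and 5 of 8 fibroblast and 0 and 4 of 6 macrophage markers. The counts were 6 and 4 of 12 for cardiomyocyte, 2 and 3 of 8 for smooth muscle and pericyte, and 1 and 0 of 5 for red blood cell markers. Mef2a, a factor of muscle promoters, stood at 185 ± 19.0 and 199 ± 13.9 CPM (0.10, SE 0.14), and Esrra, the estrogen-related receptor alpha, at 212 ± 55.5 and 208 ± 56.8 CPM (-0.03, SE 0.26).

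Skeletal muscle makes Ckm, Ak1 and Mb as well. The sum of its 16 markers ran from 156 to 528 CPM in wild-type and from 113 to 556 CPM in knockout hearts. Its most abundant genes were Acta1, which the heart also expresses, at 51.1 to 477 CPM and Myl1 at 26.9 to 43.2 CPM. The fast myosin genes Myh1 and Myh2 had at most 2 and 1 reads in a library, and Myh4 and Myog had 0 in all. Endothelial markers (7 genes, led by Fabp4 and Kdr) summed to 739.7 to 907 CPM in wild-type and 719.5 to 989.9 CPM in knockout hearts, and macrophage markers (6 genes, led by Lyz2 and C1qa) to 217 to 266 CPM and 189 to 345 CPM. Adipocyte markers (6 genes) summed to at most 0.388 CPM. Atrial markers (5 genes) summed to 83.9 to 128 CPM and 59.8 to 125 CPM, led by Nppa and Myl4. A list of 6 genes, led by the nuclear RNAs Malat1 and Neat1, summed to 331 to 366 CPM and 299 to 380 CPM. Its other genes were Fos, Jun, Egr1 and Atf3, and the sum does not measure RNA integrity.

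For each tested member, the genes with the most similar pattern over the 6 hearts were sought among 11298 others whose log2 CPM averaged 1 or more. Likeness was the root mean square distance of log2 CPM, each gene centred on its own mean, so a smaller value is closer. The nearest to Mb were Cct4, a subunit of the cytosolic chaperonin, at 0.00934, Higd1a, a mitochondrial inner-membrane protein, at 0.0289, and Sdhaf4, an assembly factor of succinate dehydrogenase, at 0.0296. These are small beside the spread of Mb itself, 0.316 on the same scale. The nearest to Ckm were Mfap1b (0.0398), Tsta3 (0.0419) and Ngly1 (0.0423), to Ckmt2 Cgnl1 (0.0284), Rpap3 (0.0291) and Atg101 (0.0398), and to Ckb Bak1 (0.0208), Eps15 (0.0251) and Hspa12a (0.0265). For Slc6a8 they were Irx4 (0.0388), Rcbtb1 (0.0411) and Phospho1 (0.0423), and for Ak1 they were Ireb2 (0.0124), Smyd5 (0.0256) and Ell (0.0287). No member was among the 3 nearest of another. The closest 2 members were Ckb and Slc6a8, at 0.0801, and Mb was the farthest from each of the other 5, at 0.242 from Ckm to 0.423 from Slc6a8.

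Exons of 4 members overlap those of a gene on the opposite strand. The sources used here do not state whether the counting used strand, and reads of a gene and its antisense partner cannot then be told apart. How many reads were shared was not measured. The antisense gene A930016O22Rik, which overlaps 451 exon bases of Ckm, had 31 to 46 reads beside at least 75257 of Ckm. The antisense gene 1700119I11Rik at Ckmt2 had 7 to 17 reads and Apol6 at Mb 2 to 8 reads. At Mb the antisense gene Gm49540 shares 412 of 1492 exon bases, and the deposited counts hold no entry for it. Strc, which shares 10 exon bases with Ckmt1, had 0 to 3 reads beside the 1 to 14 of Ckmt1.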

How the data were processed

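Transcripts of 6 mouse hearts, 3 wild type and 3 knockout, were measured by RNA sequencing. The authors deposited raw whole-number read counts per Ensembl gene and library. The submitters' processing notes list STAR, featureCounts, Subread 1.5.2, DESeq2 and the build GRCm38.p6, and do not say what each was used for. The sources used here state neither the annotation release nor how reads matching several genes were counted. From these counts, genes were kept by filterByExpr (minimum count 10, minimum total 15), scaled by TMM and tested on all 6 libraries with edgeR 4.0.16 (R 4.3.3; quasi-likelihood F test). Benjamini-Hochberg adjustment ran over the 14508 genes kept (threshold 0.05). The biological coefficient of variation was 24.2%. The test was tried on simulated data with known changes. Positions and exon lengths came from GENCODE M21 on GRCm38, and promoters from RefSeq. Symbols (49056 of 49315 identifiers) came from GENCODE M21 or, for identifiers absent from it, from another gene name reference. Ratios were taken after adding 0.5 reads to each count, and log2 CPM with a prior count of 2. Poisson intervals treat reads as independent molecules, which reads without molecular identifiers are not.

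The members and the 7 pathway and 12 marker lists were chosen with earlier results of these data known. From each list the text names members past the threshold or, where none passed, the 2 of highest mean CPM, markers at 0 reads, and for each tested member the 3 nearest genes. Genes named for being highest or lowest in a pair of hearts, or for overlapping a member, and Myh1 and Myh2, were chosen after their values were seen. Alternatives were scaling by library size alone or by DESeq2's size factors, no filter, 1 CPM in 3 samples, DESeq2 1.42.0, limma-voom (limma 3.58.1), robust edgeR, a replicate block, each library left out, and both wild-type heart 3 and knockout heart 2 left out. Another exon length was added after the data were seen.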

Additional observations from a re-analysis of the deposited data

How the results depend on the processing

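No member passed the threshold in any of the 90 refits of the 6 tested members, and their log2 fold changes stayed between -0.41 and 0.13. Ckm, Ckmt2 and Ak1 kept a negative sign in all of them. With single hearts left out, the value ran from -0.25 to -0.07 for Ckm, from -0.16 to -0.05 for Ckmt2, from -0.10 to -0.02 for Ak1, from -0.03 to 0.13 for Ckb, from -0.07 to 0.10 for Slc6a8 and from -0.41 to 0.08 for Mb, so the signs of the last 3 rest on single hearts (wild-type heart 3 for all 3, knockout heart 1 for Slc6a8 and Mb, knockout heart 3 for Mb). With wild-type heart 3 and knockout heart 2 both left out, Ckb stood at -0.02 and Slc6a8 at -0.05. Differences in ratios with single hearts left out ran from -0.01 to 0.11 for Ckmt2 to Ckm, from -0.15 to 0.19 for Mb to Ckm, from 0.10 to 0.31 for Ckb to Ckm, from 0.03 to 0.31 for Slc6a8 to Ckm, from 0.05 to 0.19 for Ak1 to Ckm and from -0.90 to 0.74 for Ckmt1 to Ckmt2, the last 0.02 with 5 reads added to each count. With the shortest coding transcript as length, the median log2 per-length ratio of Ckmt2 to Ckm was -0.73 in place of 0.51. None of the 105 refitted list medians moved by more than the spread between hearts. With single hearts left out they ran from -0.28 to 0.10 for the nucleotide kinases and -0.23 to 0.11 for globins and haem. On the same basis the range was -0.11 to 0.12 for the partners of muscle creatine kinase and -0.05 to 0.10 for the transcription factors. It was -0.02 to 0.07 for the hypoxia genes, -0.20 to 0.00 for the phosphocreatine shuttle and -0.10 to -0.02 for AMP-activated protein kinase. Ckmt1 was fitted only without the filter (log2 fold change 0.04, SE 0.82) and in DESeq2 (-0.03, SE 1.09).

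Over all genes, 1 was called, lower in knockout. With single hearts left out it was 0 to 1 in all and 0 to 1 lower, the 0 being without knockout heart 3. With wild-type heart 3 and knockout heart 2 both left out it was 2, of which 1, Spp1, was higher, named after its value was seen. Genes at an unadjusted p under 0.05 in edgeR numbered 179, against 447 with no filter, 108 with the filter of 1 CPM in 3 samples, 981 without that pair, 1126 without knockout heart 2 and 94 without wild-type heart 1. With the replicate block 0 genes were called, 0 of them lower, and 72 had an unadjusted p under 0.05. Same-numbered hearts are not said to be paired, and their deviations correlated at 0.184, -0.649 and -0.399 for numbers 1, 2 and 3, so not every heart was closest to its own number. Among the members depth limits Ckmt1 most, whose 1 to 14 reads leave its fold change with the standard errors given above.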
